A study of Mus musculus with 12 samples.

Results

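The microglia homeostatic genes are 9 genes that resting microglia, the resident macrophages of the brain, transcribe at high levels and by which these cells are commonly recognised. They are Csf1r, Cx3cr1, P2ry12, Tmem119, Aif1, C1qa, C1qb, C1qc and Trem2. They were chosen by name, and the deposited transcript entries that carry each symbol were summed into 1 value per gene and mouse. All 9 were found among the 23183 gene symbols, and all 9 were among the 14541 genes with enough counts to test.

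RNA was sequenced from the ventral hippocampus, a brain region involved in emotional behaviour, of 12 wild-type male C57BL/6J mice, with 3 mice in each of 4 groups. The study asked which genes differ between stress-susceptible mice that did and did not improve in behaviour after voluntary exercise. SES mice (9, 10 and 12) were restrained for 2 hours a day on 14 days, judged stress-susceptible, given a running wheel, and classed as responding effectively to running. SER mice (6, 19 and 20) had the same restraint and wheel and were classed as responding ineffectively. SS mice (18, 19 and 21) were restrained and judged stress-susceptible, without running as their treatment. C mice (2, 8 and 12) had no treatment. The mice were naive and 8 weeks old at the start. The sample titles give 14 days of running and the protocol text gives 4 weeks, so the length of running is uncertain. SES and SER mice were separated by their behaviour after running and not assigned to those groups in advance.

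Microglia depend on signals from their surroundings. Csf1r is the receptor for the growth factors CSF1 and IL34 and is needed for microglial survival, Cx3cr1 is the receptor for the neuronal chemokine fractalkine, P2ry12 senses ADP and directs the movement of microglial processes, and Trem2 senses lipids and lipoproteins and signals through the adaptor Tyrobp. Tmem119 is a membrane protein that marks resident microglia in the mouse brain, and Aif1 encodes IBA1, a calcium-binding, actin-bundling protein widely used to stain them. C1qa, C1qb and C1qc encode the chains of C1q, which starts the classical complement pathway and tags synapses for removal in the developing mouse brain.

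By RefSeq annotation of GRCm38.p6, the C1q genes lie next to each other on the minus strand, C1qb at chr4:136880126-136886200, C1qc at chr4:136889801-136892936 and C1qa at chr4:136895916-136898844. P2ry12 lies at chr3:59216271-59262985 (minus strand), Tmem119 at chr5:113793729-113800396 (minus), Cx3cr1 at chr9:120048683-120068296 (minus), Aif1 at chr17:35170986-35176083 (minus) and Trem2 at chr17:48346401-48352276 (plus). RefSeq promoters on the same build, from 250 bases before to 50 bases after a gene's start, were matched by symbol for 6 genes. Tmem119 and C1qa had no entry, and the promoter of Csf1r was not searched. For C1qc and Aif1 the start used in the promoter table lies a short way inside the gene span given above. The promoters were searched on both strands for GAGGAA, a core motif of PU.1, the myeloid transcription factor encoded by Spi1, and for AGGAAGT, an ETS-type motif whose letters can overlap those of GAGGAA. Across 32851 mouse promoters, 28.3% held GAGGAA, 9.35% held AGGAAGT and 32.7% held either. At least 1 of the motifs occurred in the promoters of P2ry12, Aif1, C1qb, C1qc and Trem2, and none occurred in that of Cx3cr1. The promoters of the neighbouring C1q genes are shown because those genes are compared as a unit below, each 5′ to 3′ along the gene with the motif letters in capitals, either as named or as their reverse complement. The C1qb promoter is chr4:136886151-136886450 (minus strand) and the C1qc promoter is chr4:136892865-136893164 (minus strand). In C1qb the letters are GAGGAA and the reverse complement of AGGAAGT, and in C1qc the reverse complements of both motifs overlap.
C1qb: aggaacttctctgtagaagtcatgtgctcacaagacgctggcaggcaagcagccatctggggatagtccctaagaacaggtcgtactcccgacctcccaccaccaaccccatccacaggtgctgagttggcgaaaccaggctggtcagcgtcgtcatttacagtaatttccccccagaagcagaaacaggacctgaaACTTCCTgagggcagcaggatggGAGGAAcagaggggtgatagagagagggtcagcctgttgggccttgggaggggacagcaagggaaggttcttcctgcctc
C1qc: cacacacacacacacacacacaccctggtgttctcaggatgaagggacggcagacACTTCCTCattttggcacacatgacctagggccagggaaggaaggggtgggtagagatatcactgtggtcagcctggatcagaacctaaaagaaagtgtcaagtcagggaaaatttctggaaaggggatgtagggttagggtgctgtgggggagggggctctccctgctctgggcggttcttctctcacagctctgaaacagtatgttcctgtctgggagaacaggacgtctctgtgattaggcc

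The other matches are shown with 8 bases on each side, because P2ry12 and Aif1 each separated groups of mice in the results below and Trem2 is the remaining promoter with a match. The P2ry12 match is AGGAAGT on the gene's own strand, and the Aif1 and Trem2 matches are the reverse complement of GAGGAA.
P2ry12: taacaagaAGGAAGTtccccagt
Aif1: gcacccagTTCCTCcatcctat
Trem2: tcctttccTTCCTCcctccctc

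Libraries held between 9323607 and 15707516 counts. Values below are CPM, counts scaled to the size of each library with its TMM factor (the trimmed mean of M values), with the SD over 3 mice. Differences are log2 fold changes with their SE from edgeR's quasi-likelihood test, and adjusted p-values are Benjamini-Hochberg values over all 14541 genes. Several libraries stood apart from their group. Malat1, a nuclear noncoding RNA, was at 1068, 1381 and 1974 CPM in SES mice, 1398, 1472 and 988 CPM in SER mice, 505, 3761 and 5257 CPM in SS mice, and 505.5, 262.8 and 489.2 CPM in C mice, in the order of mouse numbers above. Ttr, a choroid plexus gene, ranged from 2.783 CPM in C mouse 8 to 5095 CPM in SS mouse 18. Neuronal and hippocampal markers were detected in every library. Of 14 blood cell markers, 7 to 13 were at 0 in each library, Ly6c2 and Ms4a1 in all 12. These markers are leukocyte genes and the red-cell globin genes Hba-a1 and Hbb-bs. Their summed level was 2.01 to 3.62 CPM in SES mice, 1.03 to 2.94 CPM in SER mice, 1.49 to 5.97 CPM in SS mice and 1.12 to 7.58 CPM in C mice. The summed level of 12 border-associated macrophage markers was 17.6 to 23.8, 15.6 to 20.5, 16.4 to 19.6 and 13.2 to 15.4 CPM in SES, SER, SS and C mice, and that of the 9 microglial genes was 335 to 417, 436 to 450, 354 to 388 and 349 to 397 CPM. Much of the border-associated sum was 1 gene, Stab1, at 9.56 to 11.6, 10.5 to 11.45, 8.39 to 13.3 and 6.57 to 7.20 CPM in the same groups. The sum without Stab1 was not compared between groups. In bulk tissue, fewer microglia and less RNA per microglial cell cannot be told apart.

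**Figure D1:**
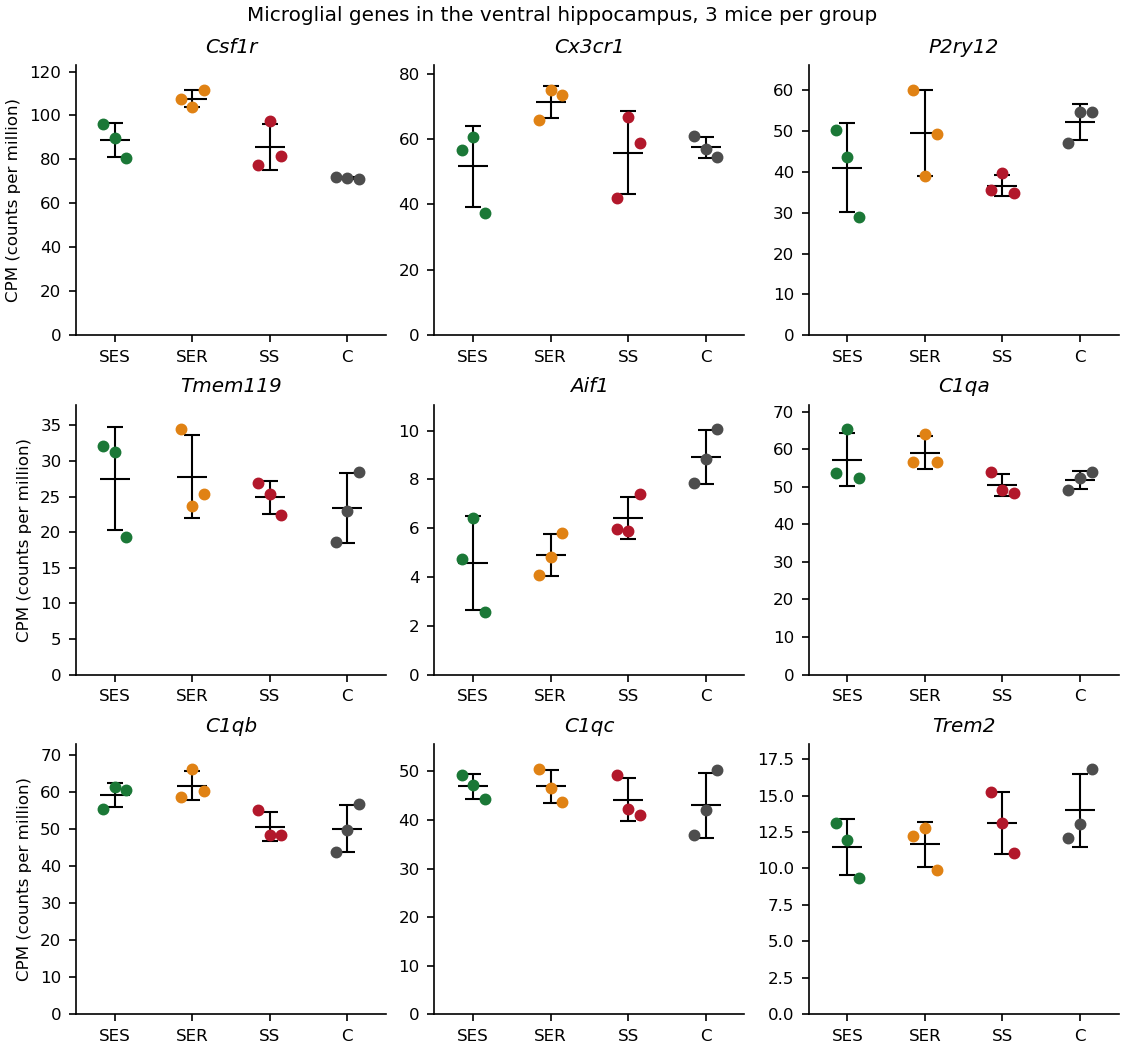
TMM-scaled CPM of each of the 9 genes (one panel per gene, y axis starting at 0) in every mouse, with the groups SES, SER, SS and C along the x axis; points are mice and bars are means with SD (n = 3). Csf1r is at 104 to 112 CPM in the 3 SER mice and at most 97.4 CPM in all other mice, and Aif1 is highest in the 3 C mice.

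Set per kilobase of transcript, the C1q chains had the highest levels. C1qa averaged 52.5 ± 5.18 CPM per kilobase over the 12 mice (SD), C1qb 50.8 ± 6.07 and C1qc 37.6 ± 3.56, and C1qc was the lowest of the chains in each of the 12 libraries. Csf1r followed at 22.9 ± 3.78, P2ry12 at 19.9 ± 4.2 and Cx3cr1 at 15.7 ± 2.97 CPM per kilobase. Tmem119 (11.6 ± 2.21), Trem2 (11.5 ± 1.9) and Aif1 (7.08 ± 2.39) were lowest. The neighbouring pairs C1qa and C1qb, and Tmem119 and Trem2, differed in mean by less than their SD, and Csf1r and P2ry12, and P2ry12 and Cx3cr1, overlapped within their SDs. In every C mouse P2ry12 was above Csf1r, at 20.9 to 24.3 against 18.4 to 18.7 CPM per kilobase. In every restrained mouse Csf1r was above P2ry12. Within a gene, the spread over mice was smallest for the C1q chains, with a coefficient of variation of 9.45% to 11.9%, and largest for Aif1 at 33.7%, whose counts were only 34 to 124 per library.

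With all 12 mice in the fit, Csf1r was the only one of the 9 genes that edgeR called in any of the 6 pairwise comparisons, and it rose in SER mice against C mice. Its level was 107.6, 103.9 and 111.7 CPM in SER mice 6, 19 and 20, 96.1, 89.7 and 80.6 CPM in SES mice 9, 10 and 12, 77.5, 97.4 and 81.7 CPM in SS mice 18, 19 and 21, and 72.2, 71.5 and 71.3 CPM in C mice 2, 8 and 12. Each SER mouse was above every other mouse, and every restrained mouse was above every C mouse. Over all genes, 25.3% did not overlap between SER and C mice, 16.9% between SER and SS mice and 10.8% between SES and SER mice. Between SS and C mice the share was 26.9%, and between SES and C mice 26%. The share of all genes with these joint patterns was not counted. Mean Csf1r was 108 ± 3.9 CPM in SER mice and 71.7 ± 0.475 CPM in C mice (SD, n = 3 each). The coefficient of variation in C mice was 0.662%, while edgeR's estimate of the biological variation of Csf1r was 9.22%. The SD of these 3 C mice may therefore understate the spread among such mice. The log2 fold change was 0.59 ± 0.10 (SE, 95% interval 0.37 to 0.80), or 1.5-fold, with an adjusted p of 0.024 in edgeR's test. In this comparison 1.19% of all genes tested were called, 0.853% higher in SER mice. The call was lost when SER mouse 6 (adjusted p = 0.0915), SER mouse 20 (0.0993), C mouse 2 (0.0515), C mouse 8 (0.0701) or C mouse 12 (0.0817) was left out, while the log2 fold change stayed between 0.57 and 0.61. It was also lost with the Malat1 level as a covariate (0.54, adjusted p = 0.0566) and when transcripts were tested instead of genes (0.58, adjusted p = 0.0623), whereas DESeq2 gave an adjusted p of 2.61e-05.

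The other contrasts of Csf1r did not pass the adjusted threshold in edgeR's test with all 12 mice. Against SS mice, the log2 difference of SER mice was 0.33 (95% interval 0.12 to 0.54, adjusted p = 0.129), and DESeq2 called it (0.34, adjusted p = 0.0467). Between SES and SER mice it was -0.28 (-0.49 to -0.07, adjusted p = 1, unadjusted p = 0.0138 in the same edgeR test), and against C mice it was 0.31 in SES mice (adjusted p = 0.174) and 0.26 in SS mice (adjusted p = 0.11). Without SS mouse 18 the SS against C difference was 0.31 and passed (adjusted p = 0.0349), in a fit that called 3797 genes in all, against 1430 with all 12 mice. SES and SS mice overlapped, at 0.05 (-0.16 to 0.27, adjusted p = 0.886). These comparisons share samples, so they are not independent of each other. edgeR's test of any difference among the 4 groups gave Csf1r an adjusted p of 0.0616, and it called 0.206% of all genes and none of the 9. The same test in DESeq2 called Csf1r (adjusted p = 0.000192) and Aif1 (0.0274), among 1844 genes. Csf1r shares 873 exon bases with Hmgxb3 on the opposite strand. Hmgxb3, named after its values were seen, was at 46.6 ± 3.05 CPM in SER mice and 41.2 ± 2.75 CPM in C mice (log2 fold change 0.17, adjusted p = 0.371 in edgeR's test). The strand setting of the count is not given, so shared reads cannot be told apart.

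**Figure D2:**
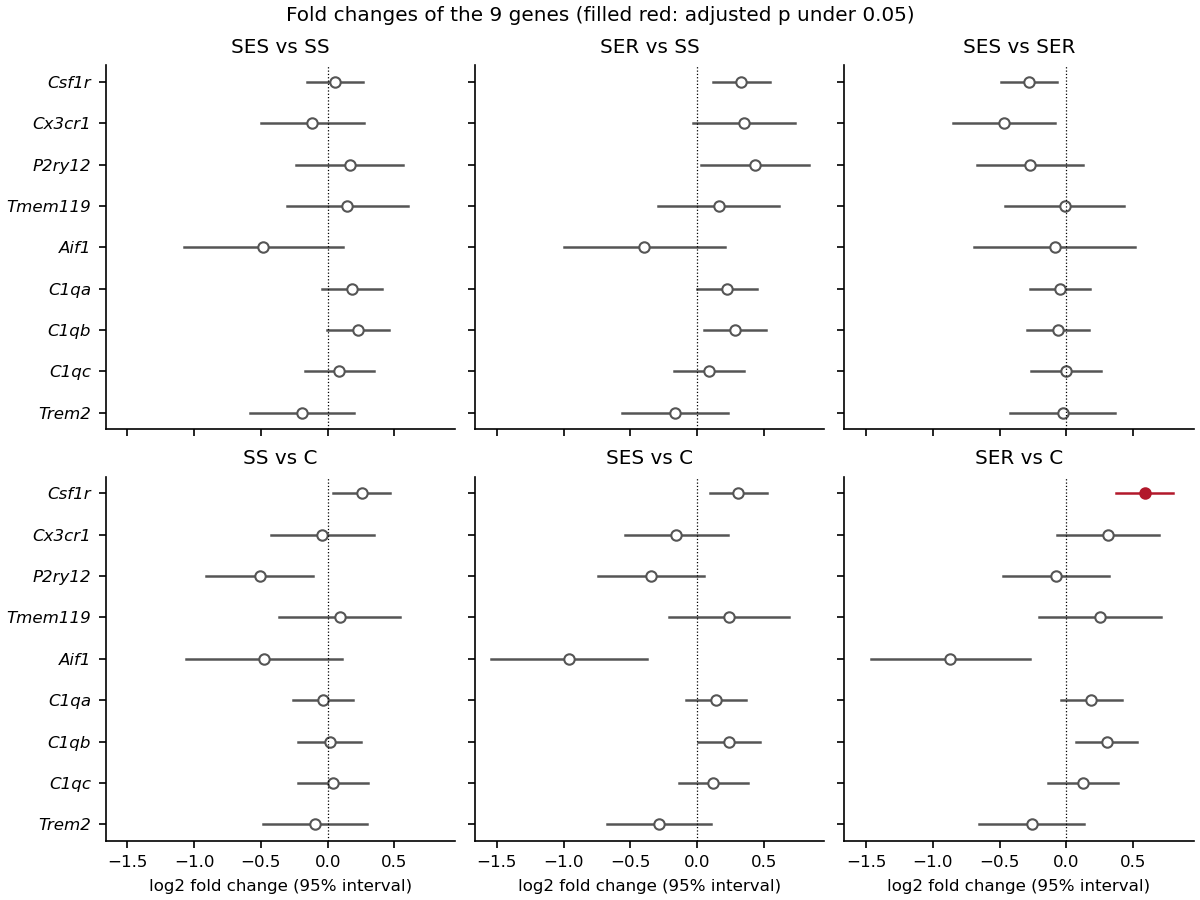
Log2 fold changes of the 9 genes in the 6 pairwise comparisons, with 95% intervals from edgeR's quasi-likelihood test; positive values are higher in the first-named group. The one called difference is Csf1r in SER against C mice, at 0.59.

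Cx3cr1 was highest in SER mice, at 65.8, 75.0 and 73.3 CPM in mice 6, 19 and 20. It was at 56.8, 60.6 and 37.3 CPM in SES mice 9, 10 and 12, at 42.0, 66.7 and 58.8 CPM in the SS mice 18, 19 and 21, and at 60.9, 57.02 and 54.5 CPM in C mice 2, 8 and 12. The SER mice lay above all SES and all C mice, whereas SES mouse 12 and SS mouse 18 stood well below the rest of their groups. The log2 difference of SES from SER mice was -0.47 ± 0.18 (SE), with a 95% interval of -0.85 to -0.08, an unadjusted p of 0.0206 and an adjusted p of 1 in edgeR's test. Csf1r and Cx3cr1 were the 2 genes of the 9 whose values did not overlap between SES and SER mice, against 10.8% of all genes. All 9 log2 differences between SES and SER mice were below 0 with TMM scaling, but without it Tmem119 (0.01), C1qc (0.02) and Trem2 (0.000764) were above 0. Their median with TMM scaling was -0.06 against 0.0028 over all genes, and edgeR called none, where 0.0275% of all genes were called. For SER mice against C mice the log2 difference of Cx3cr1 was 0.31 (-0.07 to 0.70, adjusted p = 0.376).

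P2ry12 was lowest in SS mice. SS mice 18, 19 and 21 had 35.5, 39.7 and 34.8 CPM. C mice 2, 8 and 12 had 47.1, 54.7 and 54.7 CPM. The groups did not overlap, and the log2 difference was -0.51 ± 0.19 (SE; 95% interval -0.91 to -0.11), with an unadjusted p of 0.0166 and an adjusted p of 0.0925 in edgeR's test. In the same comparison 9.83% of all genes were called and none of the 9, and 3 of the 9 did not overlap, with Csf1r higher and P2ry12 and Aif1 lower in SS mice, against 26.9% of all genes. Running mice spanned both levels, with 50.4, 43.6 and 29.1 CPM in SES mice 9, 10 and 12 and 60.2, 39.0 and 49.3 CPM in SER mice 6, 19 and 20. The log2 difference from SS mice was 0.43 in SER mice (0.03 to 0.84, adjusted p = 0.242) and 0.16 in SES mice (-0.24 to 0.56, adjusted p = 0.798), and SS mice overlapped both. Malat1 also differed in this comparison, and with its level as a covariate the log2 difference of P2ry12 in SS against C mice was -0.39 (adjusted p = 0.615).

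Tmem119 and Trem2 overlapped in all 6 comparisons. Tmem119 was at 32.1, 31.3 and 19.3 CPM in SES mice 9, 10 and 12, at 34.5, 23.6 and 25.3 CPM in SER mice 6, 19 and 20, at 26.9, 25.4 and 22.4 CPM in the SS mice 18, 19 and 21, and at 18.6, 23.1 and 28.4 CPM in C mice 2, 8 and 12. Its widest log2 difference was 0.25 in SER against C mice, with a 95% interval of -0.20 to 0.71. Trem2 was at 13.1, 11.9 and 9.34 CPM in SES mice, at 12.2, 12.8 and 9.93 CPM in SER mice, at 15.3, 13.1 and 11.04 CPM in the SS mice, and at 12.1, 13.1 and 16.8 CPM in C mice. The widest log2 difference of Trem2 was -0.29 in SES against C mice (-0.68 to 0.10, adjusted p = 0.446). These intervals leave room for differences of the size called for Csf1r. Trem2 was deposited as 2 transcripts, of which NM_001272078 took 4 to 45 counts, or 3.1% to 23% of the gene. When the 10 transcripts of the 9 genes were tested without summing, among 20402 transcripts, none was called in any comparison.

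Mean Aif1 was lowest in running mice and highest in C mice. Its level was 4.72, 6.43 and 2.56 CPM in SES mice 9, 10 and 12, 4.10, 4.81 and 5.78 CPM in SER mice 6, 19 and 20, 5.97, 5.88 and 7.39 CPM in SS mice 18, 19 and 21, and 7.86, 8.85 and 10.05 CPM in C mice 2, 8 and 12. No restrained mouse reached the lowest C mouse, and SER mice lay below SS mice without overlap while SES and SS mice overlapped. Against C mice, the log2 difference was -0.96 ± 0.27 (SE) in SES mice (95% interval -1.55 to -0.37, adjusted p = 0.142), -0.87 ± 0.28 in SER mice (-1.47 to -0.28, adjusted p = 0.122) and -0.48 ± 0.27 in SS mice (-1.06 to 0.11, adjusted p = 0.272), none of them called by edgeR. DESeq2 called the difference of SES from C mice at an adjusted p of 0.0343 and that of SER from C mice at 0.0486. In SES against C mice 2 of the 9 genes did not overlap, Csf1r higher and Aif1 lower, against 26% of all genes, and none was called, against 0.179% of all genes. Over all genes, 25.3% did not overlap in SER against C mice, 26.9% in SS against C mice and 16.9% in SER against SS mice. The share of genes lower in every restrained mouse than in every C mouse was not counted. The ratio of Csf1r to Aif1 CPM was 22 ± 8.9 in SES mice, 22.4 ± 3.5 in SER mice, 13.6 ± 2.8 in SS mice and 8.12 ± 1.1 in C mice (SD, n = 3 each). This ratio restates the opposite directions of the 2 genes in the same mice and is a description, not a further result.

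The mean levels of C1qa and C1qb were highest in running mice. C1qb was at 55.4, 61.2 and 60.5 CPM in SES mice 9, 10 and 12, at 58.6, 66.2 and 60.2 CPM in SER mice 6, 19 and 20, at 55.1, 48.3 and 48.2 CPM in the SS mice 18, 19 and 21, and at 43.9, 49.6 and 56.6 CPM in C mice 2, 8 and 12. All 6 running mice were above all SS mice, and the SER mice were also above all C mice. The log2 difference from SS mice was 0.29 ± 0.11 (SE) in SER mice (95% interval 0.06 to 0.52, adjusted p = 0.19) and 0.22 ± 0.11 in SES mice (-0.01 to 0.46, adjusted p = 0.555), and against C mice it was 0.30 in SER mice (adjusted p = 0.159) and 0.24 in SES mice (adjusted p = 0.296), in edgeR's test. Without SS mouse 18 the SER against SS difference of C1qb was 0.36 and passed (adjusted p = 0.0445). That fit called 2434 genes in all in this comparison, against 7 with all 12 mice. In SES against SS mice C1qb was the only gene of the 9 that did not overlap, against 12.2% of all genes. None of the 9 was called there by edgeR, and the share called among all 14541 genes was 0%. At an unadjusted p under 0.05 that test held 1310 genes, or 9.01%, and none of the 9, and DESeq2 called 15 genes after adjustment. In SER against SS mice 4 of the 9 did not overlap, with Csf1r, C1qa and C1qb higher and Aif1 lower, against 16.9% of all genes, and none was called, against 0.0481%.

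C1qa was at 53.8, 65.3 and 52.4 CPM in SES mice, at 56.5, 64.1 and 56.5 CPM in SER mice, at 53.9, 49.2 and 48.4 CPM in the SS mice, and at 49.2, 52.3 and 53.9 CPM in C mice. SER mice lay above SS and C mice, and SES mice overlapped both. The log2 difference of SER mice was 0.23 ± 0.11 (SE) from SS mice (adjusted p = 0.275) and 0.19 ± 0.11 from C mice (adjusted p = 0.364). C1qc was at 49.3, 47.1 and 44.3 CPM in SES mice, at 50.5, 46.5 and 43.7 CPM in SER mice, at 49.3, 42.3 and 40.9 CPM in the SS mice, and at 36.9, 42.0 and 50.2 CPM in C mice, overlapping in every comparison. Between SES and SER mice the log2 difference was 0.00 for C1qc (-0.26 to 0.26) and -0.05 for C1qa (-0.27 to 0.18). Per kilobase, C1qa was 1.04 ± 0.069 of C1qb and C1qc was 0.745 ± 0.064 of C1qb (SD over 12 mice), with coefficients of variation of 6.62% and 8.59%. C1qa was 1.4 ± 0.13 of C1qc, with a coefficient of 9.39%. The CPM of the chains themselves had coefficients of 9.45% to 11.9%, and that of the genes outside the C1q group 16.4% to 33.7%. A ratio within a library and the CPM of a single gene are unlike measures, so their coefficients are not compared.

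**Figure D3:**
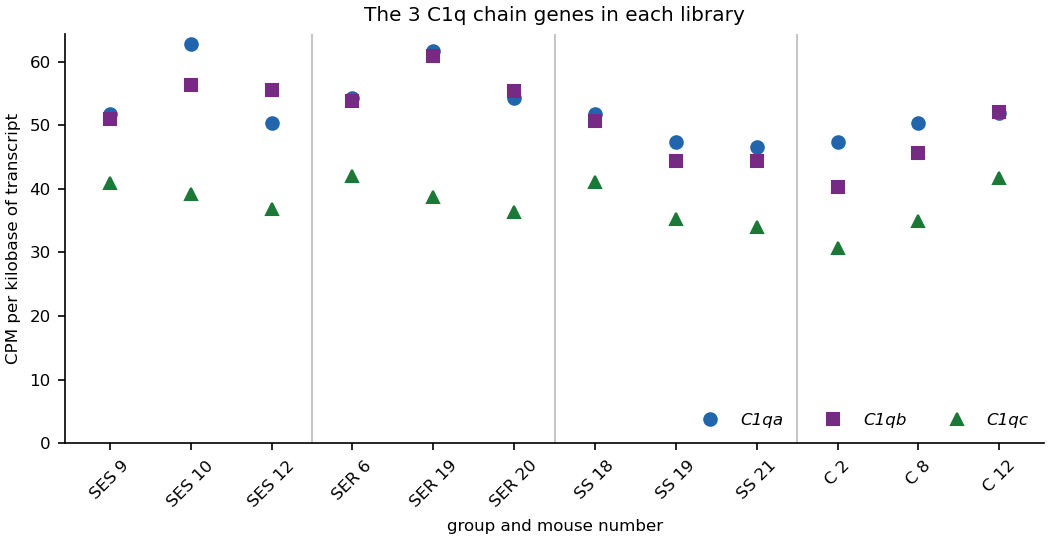
Level of C1qa, C1qb and C1qc per kilobase of transcript in each of the 12 mice, in the order SES, SER, SS, C. C1qc is the lowest of the chains in every mouse, at 0.635 to 0.81 of C1qb.

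The 9 genes did not share 1 direction in the comparisons with SS and C mice. In SER against C mice 6 of 9 log2 differences were above 0, with a median of 0.19 against -0.0082 over all genes, and 5 of 9 did not overlap, namely Csf1r, Cx3cr1, C1qa and C1qb higher and Aif1 lower, against 25.3% of all genes. In SER against SS mice 7 of 9 were above 0, with a median of 0.23 against -0.017. In SES against SS mice 6 of 9 were above 0 (median 0.09 against -0.013), in SES against C mice 5 of 9 (median 0.12 against 0.0027) and in SS against C mice 4 of 9 (median -0.04 against 0.018). At an unadjusted p under 0.05, edgeR's test held 3 of the 9 genes in SER against C mice, against 18.6% of all genes, 3 in SER against SS mice (18.2%), 3 in SES against C mice (16.2%), 2 in SS against C mice (28.2%) and 2 in SES against SER mice (3.72%). After adjustment DESeq2 called 2 of the 9 in SER against C mice, among 763 genes in all, 1 in SER against SS mice (Csf1r, among 559) and 1 in SES against C mice (among 397). It called 0 of the 9 in SS against C mice (among 2211), SES against SS mice (among 15) and SES against SER mice (among 6). In the 4-group test 3 of the 9, namely Csf1r, Aif1 and C1qb, had an unadjusted p under 0.05, against 23.8% of all genes.

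The 9 genes were on median weakly correlated over the 12 mice. Of 36 gene pairs, 27 had a positive Pearson r of log2 CPM, with a median of 0.3. With each group's mean removed the median was 0.39, and r ran from -0.462 (Csf1r and C1qb) to 0.878 (P2ry12 and Tmem119). These values with group means removed were not tested. Only 2 pairs passed Benjamini-Hochberg adjustment of permutation p-values over the 36 pairs for both measures. C1qa and C1qb had r = 0.836 (permutation p = 0.00049, adjusted p = 0.0176) and Spearman rho = 0.874 (adjusted permutation p = 0.0158). With the 2 mice farthest from the median of C1qa left out (SES mouse 10 and SER mouse 19), that r was 0.846, and with each group's mean removed it was 0.668. Tmem119 and C1qc had r = 0.808 (permutation p = 0.00161, adjusted p = 0.029) and rho = 0.832 (adjusted permutation p = 0.0274), with r = 0.66 without the 2 mice farthest from the median of Tmem119 (C mouse 2 and SER mouse 6) and 0.776 with group means removed. Distance from the median of the second gene of a pair was not used. The mice of a group share its treatment, so the 12 points are not all independent. Csf1r and Aif1 had r = -0.495 (adjusted permutation p = 0.324), and r was 0.341 with group means removed.

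**Figure D4:**
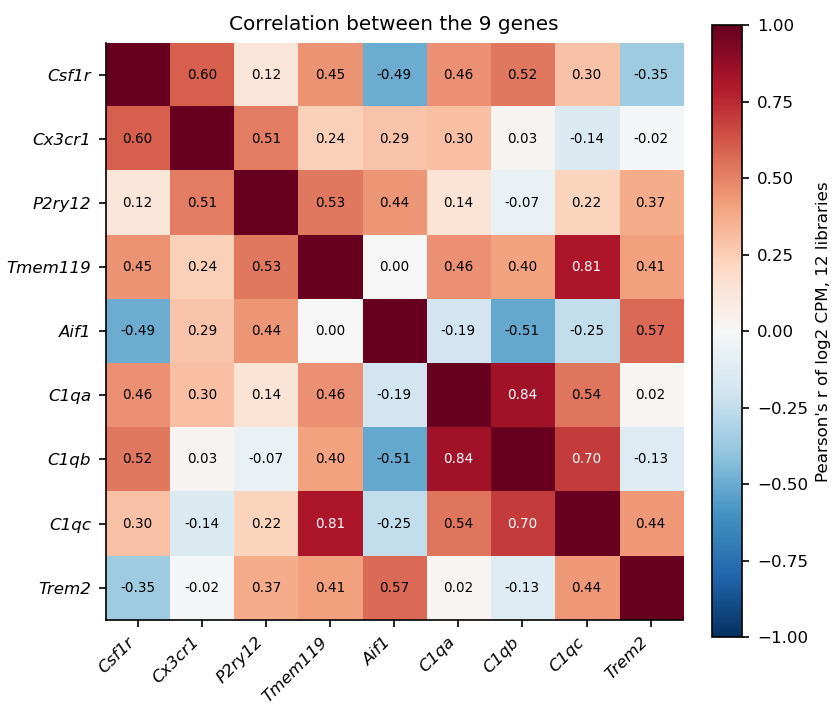
Pearson correlation of log2 CPM between each pair of the 9 genes over the 12 mice, on a colour scale centred on 0. The C1qa and C1qb pair is highest at 0.836, and Aif1 is negative with Csf1r at -0.495.

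The 10 genes outside the set whose log2 CPM followed the mean of the 9 scaled genes most closely over the 12 mice are given as a description. In falling order, Spi1, which encodes PU.1, and Vav1, a haematopoietic signalling protein, each had r = 0.857. Ldoc1l (0.849), C1ql1 (0.847), Mcrs1 (0.808), Cenpa (0.805), Wbp1 (0.792) and Fam173b (0.787) followed. Selplg, a glycoprotein of leukocytes and microglia (0.784), and Tgm4 (0.782) came last. They were picked as the highest r of all other genes tested, and no p-value was computed. The mean of the scaled genes was highest in SER mouse 6 and lowest in SES mouse 12.

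Of the ligands and partners of these receptors, 20 of 22 were tested. In SS against C mice 1 fell and 1 rose, which is 10% against 9.83% of all genes. Tyrobp, the adaptor of Trem2, fell in SS mice, to 13.5 ± 0.701 CPM against 19.3 ± 1.53 CPM in C mice, by 0.52 on the log2 scale (adjusted p = 0.0345 in edgeR's test). In running mice Tyrobp was at 14.1 ± 0.459 CPM (SES) and 15.1 ± 2.6 CPM (SER), with adjusted p of 0.144 and 0.181 against C mice. Plcg2, a phospholipase downstream of Trem2, rose to 7.7 ± 1.81 CPM in SS mice against 3.96 ± 0.61 CPM in C mice (log2 fold change 0.96, adjusted p = 0.0311). In SER against C mice 2 genes rose and none fell, against 1.19% of all genes. They were Clu, an apolipoprotein that binds Trem2, at 1270 ± 63.1 CPM in SER mice against 931 ± 29.1 CPM in C mice (log2 fold change 0.44, adjusted p = 0.031), and Inpp5d, a phosphatase that limits Trem2 signalling, at 18 ± 2.57 CPM in SER mice against 10.7 ± 0.274 CPM in C mice (0.75, adjusted p = 0.0384). Both genes were also above every C mouse in each SES and SS mouse, without a call. In SES mice 9, 10 and 12 Clu was at 1148, 1221 and 1190 CPM and Inpp5d at 18.3, 17.9 and 13.7 CPM. Over all genes, 26% did not overlap between SES and C mice and 26.9% between SS and C mice. Clu is also strongly transcribed in astrocytes, and 4 of 10 astrocyte markers rose in SER against C mice, against 1.19% of all genes, with a summed level of 9140 to 10400 CPM in SER mice and 6660 to 7430 CPM in C mice. The part of astrocyte RNA in the Clu result was not tested. Of the ligand genes Csf1, Il34 and Cx3cl1, none was called by edgeR in any comparison with all 12 mice. Csf1 was at 24.9 ± 0.44 CPM in SS mice and 18.7 ± 4.68 CPM in C mice (log2 fold change 0.42, adjusted p = 0.135), and was 0.36 lower in SES mice and 0.37 lower in SER mice than in SS mice on the log2 scale. Il34 was within 27.4 to 31.6 CPM and Cx3cl1, which encodes fractalkine, within 351 to 410 CPM as group means.

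Of the 29 other genes of resting microglia, all tested, 3 fell in SS against C mice and none rose, which is 10.3% against 9.83% of all genes, 5.21% higher and 4.63% lower. Cd53, a tetraspanin of leukocytes, was at 8.86 ± 0.301 CPM in SS mice and 14.3 ± 1.37 CPM in C mice (log2 fold change -0.69 ± 0.13 SE, adjusted p = 0.0223 in edgeR's test). Gpr34, a receptor for lysophosphatidylserine, was at 12.5 ± 2.62 CPM in SS mice against 22 ± 1.19 CPM in C mice (-0.82 ± 0.20, adjusted p = 0.0283), and P2ry13, an ADP receptor related to P2ry12, at 8.38 ± 1.24 CPM in SS mice against 13.3 ± 1.35 CPM in C mice (-0.66 ± 0.18, adjusted p = 0.0382). All 3, named because this same test called them, were below the C mice in each SS mouse. P2ry12, which was not called, was below them too. Over all genes, 14.2% were lower in SS mice without overlap. In the same comparison 1 of 10 oligodendrocyte markers fell and none was above 0 (median -0.34), and 2 of 13 endothelial and mural markers fell, with 3 above 0 (median -0.16), and their part in the result was not tested. In SER against SS mice 26 of the 29 were above 0, with a median of 0.17 against -0.017 over all genes, and none was called with all 12 mice. Without SS mouse 18, 6 of the 29 were called, in a fit that called 2434 genes in all, against 7 with all 12 mice.

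Of 35 genes of activated microglia, 23 were tested, and 3 fell in SS against C mice and none rose, which is 13% against 9.83% of all genes. They were B2m, a subunit of major histocompatibility class I molecules (log2 fold change -0.59, adjusted p = 0.0244), Tyrobp, which is also among the Trem2 partners, and Pycard, an inflammasome adaptor (-1.23, adjusted p = 0.0477, with SS and C mice overlapping). The cytokine genes Il1b and Tnf and the disease-associated microglia genes Cst7, Itgax and Clec7a had at most 7 counts in any library and were not tested. Of 21 other complement genes, 17 were tested, and 1, C5ar1, the receptor for the complement fragment C5a, rose in SER against C mice, against 1.19% of all genes. It had 34, 26 and 22 counts in SER mice 6, 19 and 20 and 12, 10 and 4 counts in C mice 2, 8 and 12, or 2.44 ± 0.226 CPM in SER mice against 0.727 ± 0.39 CPM in C mice (log2 fold change 1.75 ± 0.38 SE, adjusted p = 0.0451). C5ar1 was also above every C mouse in SES mice 9, 10 and 12, at 1.699, 2.209 and 2.485 CPM, without a call. Over all genes, 26% did not overlap between SES and C mice. SS and C mice overlapped. Of 12 border macrophage markers, 5 were tested, and Stab1, a scavenger receptor, rose in SS against C mice (log2 fold change 0.79, adjusted p = 0.0261), where 5.21% of all genes were called higher. Its level was 11.7 ± 2.85 CPM in SS mice and 6.79 ± 0.354 CPM in C mice. Without a call, it was also above every C mouse in SES mice (9.56 to 11.6 CPM) and SER mice (10.5 to 11.45 CPM). Over all genes, 26% and 25.3% did not overlap in these comparisons. In SS against C mice 3 of the 5 markers were above 0. Mrc1, which marks border-associated macrophages, was at most 4.28 CPM in any mouse. Its log2 difference in SS against C mice was -0.35 (adjusted p = 0.591 in edgeR's test).

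In the comparisons of SES mice with SS, SER and C mice none of these lists held a called gene with all 12 mice in the fit. Without SS mouse 18, 1 other resting microglia gene, 2 ligands or partners and 3 complement genes were called in SES against SS mice, and 2 ligands or partners, 2 complement genes and 1 border macrophage marker in SES against C mice. Over all genes, that fit called 1283 in SES against SS mice and 548 in SES against C mice, against 0 and 26 with all 12 mice. All of the listed calls in SS against C mice were lost when SS mouse 19, SS mouse 21, C mouse 8 or C mouse 12 was left out, with adjusted p up to 0.194, although the log2 fold changes kept their direction, such as -0.75 to -0.62 for Cd53 and -0.59 to -0.48 for Tyrobp over all mice left out in turn. They were also lost with Malat1 as a covariate, with adjusted p of 0.415 to 0.601, and in a fit of the SS and C mice alone, with adjusted p of 0.105 to 0.146. Gpr34, P2ry13 and Plcg2 were also lost without C mouse 2, P2ry13 also without SES mouse 10 or SER mouse 20, and Pycard without any mouse other than C mouse 2. In SER against C mice the calls of Clu and Inpp5d were lost without SER mouse 6, SER mouse 20, C mouse 8 or C mouse 12, with adjusted p up to 0.0979 for Clu and 0.165 for Inpp5d. Inpp5d was also lost without SES mouse 9, SS mouse 19 or C mouse 2, and C5ar1 remained called only when SS mouse 18 or C mouse 2 was the mouse left out. In SS against C mice 6 of 8 nuclear noncoding RNAs rose, against 9.83% of all genes called, with a summed level of 1280 to 12100 CPM in SS mice and 1330 to 1740 CPM in C mice.

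**Figure D5:**
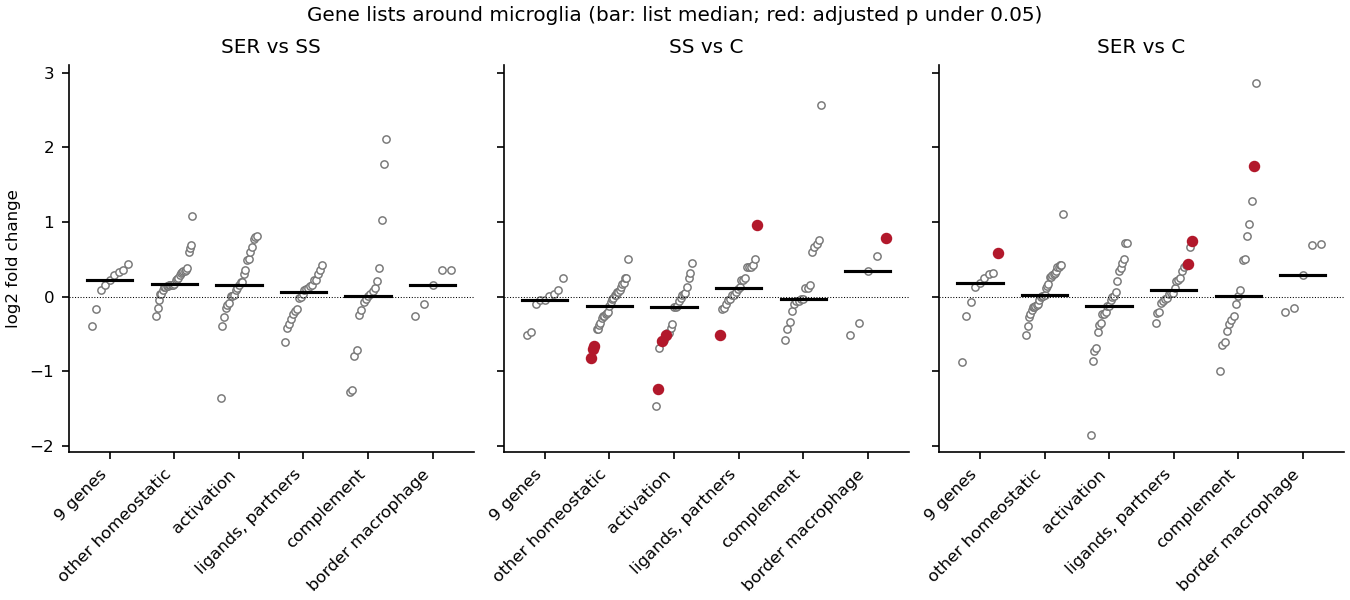
Log2 fold changes (y axis) of the tested genes of 6 lists (x axis) in SER against SS, SS against C and SER against C mice; each point is a gene, red where it was called, and each bar is the median of its list. In SER against SS mice 26 of the 29 other resting microglia genes lie above 0, and none of them was called with all 12 mice.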

How the data were processed

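The authors deposited 1 table per mouse of whole-number estimated counts for 33299 RefSeq transcripts, not normalized. TopHat and mm10 are named in the submitters' processing notes, while the program that counted reads, whether it used strand, and its gene annotation were not given in the sources used here. Per the labels' protocols, RNA was extracted with Trizol and the NEBNext Ultra II Directional kit was used for the libraries. Totals of 9323607 to 15707516 counts per library set the precision of low genes.

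Transcript counts were summed per symbol, filtered with filterByExpr (minimum count 10), scaled with TMM factors of 0.97 to 1.039, and compared by the quasi-likelihood F test of edgeR 4.0.16 (R 4.3.3) in 1 fit of 12 libraries with 8 residual degrees of freedom, with Benjamini-Hochberg adjustment and calls at an adjusted p under 0.05. Standard errors derive from the F statistic. Correlations used 100000 permutations. The steps were tested on simulated data. DESeq2 1.42.0, other scalings and filters, Malat1 and Ttr covariates, fits of the compared groups alone, deposited transcripts and leaving out each mouse were the alternatives. No 2 libraries of a group agreed within counting noise (mean chi-square per gene at least 6.11, where 1 is counting noise).

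The 9 genes, the gene lists and the rule for named genes (list members called in a pairwise comparison, up to 4 per list and direction, with Tyrobp, Csf1, Il34, Cx3cl1, Mrc1 and 1 gene not reported here always, and the 10 genes most correlated with the set) were chosen with earlier results of these data known.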

Additional observations from a re-analysis of the deposited data

How the results depend on the processing

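In SER against C mice, where 1 gene was called, 0 were called with the Malat1 covariate, 0 with transcripts as deposited, 2 with DESeq2 (Csf1r and Aif1), and 0 to 1 when 1 mouse was left out. In SER against SS mice, where 0 were called, the count was 1 with DESeq2 (Csf1r), 1 without C mouse 2 and SS mouse 18 together (C1qb), and 0 to 1 when 1 mouse was left out. In SES against C mice the count was 0, against 1 with DESeq2 and 1 without C mouse 2 and SS mouse 18 together, in both Aif1, and 0 throughout when 1 mouse was left out. The 4-group test called 0, against 1 with no filter, 1 with the Ttr covariate, 1 when SS mouse 18 alone stood for the SS group (an alternative added after seeing the data), 2 without C mouse 2 and SS mouse 18, 2 with DESeq2, and 0 to 2 when 1 mouse was left out. When 1 mouse was left out, 0 to 1 were called in SS against C mice (Csf1r without SS mouse 18, 0.313, adjusted p = 0.0349 by edgeR), and 0 in SES against SS and SES against SER mice. The causes were not tested. Directions reversed for 19 of 54 fold changes in at least 1 setting. None of these was called in any setting, and the largest was 0.163 on the log2 scale as reported. With the Malat1 covariate, the log2 difference was 0.00751 for C1qc (SES against SER), 0.0574 for C1qa and 0.146 for Trem2 (SS against C) and 0.00138 for P2ry12 (SER against C). With the Ttr covariate it was 0.0688 for Tmem119 and 0.00296 for C1qc (SES against SER), and with deposited transcripts 0.00494 for C1qc. Without C mouse 2 and SS mouse 18 it was -0.0114 for Csf1r (SES against SS), and 0.159 for Cx3cr1, -0.115 for Tmem119, -0.148 for C1qb and -0.157 for C1qc (SS against C). With SS mouse 18 alone in the SS group, assumed to vary like the other groups, it was 0.309 for Cx3cr1 and -0.0638 for C1qc (SES against SS), -0.0601 for C1qc (SER against SS), and 0.0525 for C1qa and 0.122 for Trem2 (SS against C). Leaving out 1 mouse gave, in SES against SER mice, -0.411 to 0.187 for Aif1, -0.154 to 0.00878 for C1qa, -0.0494 to 0.0568 for C1qc, -0.142 to 0.181 for Tmem119 and -0.137 to 0.0936 for Trem2. In SS against C mice it gave -0.0775 to 0.113 for C1qb, -0.0672 to 0.164 for C1qc, -0.188 to 0.119 for Cx3cr1, -0.0529 to 0.256 for Tmem119 and -0.221 to 0.0626 for Trem2. In the other comparisons it gave -0.0112 to 0.158 for Csf1r, -0.281 to 0.0732 for Cx3cr1 and -0.00595 to 0.362 for P2ry12 (SES against SS), -0.286 to 0.0331 for Cx3cr1 (SES against C), -0.239 to 0.069 for P2ry12 (SER against C) and -0.019 to 0.276 for Tmem119 (SER against SS). Over all genes, the count called in SS against C mice was 1430, against 0 with the Malat1 covariate, 0 in a fit of those groups alone, 0 when SS mouse 18 alone stood for the SS group, 2211 with DESeq2, 3644 without C mouse 2 and SS mouse 18, and 0 to 3797 when 1 mouse was left out. In SER against C mice it was 173, against 96, 281, 390, 763, 796 and 6 to 795 in those settings, and 355 with the Ttr covariate. In SES against C mice it was 26, against 5, 160, 186, 397, 929 and 0 to 548, and 51 with Ttr. In SER against SS mice it was 7, against 15 with no filter, 20 with Ttr, 3 in a fit of those groups alone, 4 when SS mouse 18 alone stood for the SS group, 559 with DESeq2, 2573 without C mouse 2 and SS mouse 18, and 4 to 2434 when 1 mouse was left out. In SES against SS mice it was 0, against 15 with DESeq2, 1430 without C mouse 2 and SS mouse 18, and 0 to 1283 when 1 mouse was left out. The 4-group test called 30, against 289 with no filter, 523 with Ttr, 134 when SS mouse 18 alone stood for the SS group, 1844 with DESeq2, 3357 without C mouse 2 and SS mouse 18, and 6 to 3426 when 1 mouse was left out. Without TMM factors, the differences of 3 of the 9 genes between SES and SER mice, below 0 as reported, were above 0 (0.0111 for Tmem119, 0.0235 for C1qc and 0.000764 for Trem2). No paired analysis was possible, because the groups hold differently treated mice and the labels do not link mice across groups. A mouse number that recurs in another group is not said to be the same animal. Depth limits Aif1 most, at 34 to 124 counts, and with 3 mice a group differences of the size seen in Trem2 or Tmem119 lie within the intervals.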
